A study of Mus musculus with 12 samples.

Results

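The gene group described here is the perineuronal and pericellular matrix set of glia: the lecticans Ncan, Bcan and Vcan, the tenascins Tnc and Tnr, the link protein Hapln1, the receptor-type phosphatase Ptprz1 and the part-time chondroitin sulphate proteoglycan Cspg5. The 8 genes were taken by symbol from the count table, with no threshold on a measured value, and all 8 were among its 31053 genes. They were followed across the 4 single-cell libraries of a study that compared immature with mature mouse striatal astrocytes.

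The brain's extracellular matrix has little collagen and is built on hyaluronan, a long sugar polymer made at the cell surface. Lecticans are chondroitin sulphate proteoglycans that bind hyaluronan at one end and tenascins at the other, and link proteins such as Hapln1 lock the lectican to the hyaluronan. In the adult the condensed form of this matrix surrounds neurons as perineuronal nets, whereas the early matrix is loose and is known for versican, neurocan and tenascin-C. Ptprz1 has a long chondroitin sulphate-bearing ectodomain that is also released as phosphacan and binds tenascins and contactin-1, and Cspg5 (neuroglycan C) is a transmembrane proteoglycan. Oligodendrocyte precursors are a well-known source of versican and tenascin-R.

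The libraries held wild-type mouse striatal cells enriched with magnetic beads against ACSA2, an astrocyte surface antigen, and carried no transgene or treatment. The labels called the strain mixed, whereas the methods of the study named male C57BL/6Jax mice and pooled several animals in each preparation with the subventricular zone left out; these libraries were not described one by one. There were 2 libraries at 3 months of age (3m replicates 1 and 2) and 2 early postnatal ones (postnatal replicates 1 and 2), sequenced in 12 runs. For the postnatal libraries the title and the age tag of each sample exchanged postnatal days 3 and 7, so they were treated as 1 postnatal group and days 3 and 7 were not compared.

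After filtering, 3163 of 4245 barcodes were kept, 764 to 1120 cells in each 3m library and 555 and 724 in the postnatal ones. The molecule counts (unique molecular identifiers, UMIs) summed over the cells kept were between 6991930 and 11276224 a library. The study describes independent preparations of pooled animals at each age, without naming the preparation behind each of these libraries. In the age fits the p-values measure the spread between the 2 libraries of an age, and animals within a pool are not separate replicates. By title as by age tag the 2 postnatal libraries are of different days, so their spread may include a difference of day. The comparisons of cell classes, of age effects between classes and of cycling cells were fitted with the library as a block. Their p-values measure the spread left among the sums of a fit once differences between libraries are taken out. The libraries shared cell barcodes: 95 were found in both postnatal replicate 2 and 3m replicate 2, and no other pair shared more than 2. Of the cells kept, 50 were the smaller member of such a pair, 46 of them in 3m replicate 2. Leaving those cells out changed none of 77 calls on the 8 genes compared, and the largest move of a fold change was 0.069 (log2).

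The labelled cell type was only part of each library. Cells were gated by 10 marker genes a class, which hold none of the 8 genes, and 258 cells were left unassigned. Astroglia-like cells, marked by genes such as Slc1a3, Aldoc and Gja1, numbered 315 and 314 at 3m and 386 and 551 postnatally. Precursor-like cells, marked by Pdgfra, Cspg4 and other oligodendrocyte precursor genes, numbered 46 and 8 at 3m and 70 and 9 postnatally. Oligodendrocyte-like cells numbered 556 and 293 at 3m and 0 in both postnatal libraries. Mural-like cells (pericytes and smooth muscle) numbered 58 and 47 at 3m and 21 and 33 postnatally. The gate matched a clustering of the same cells for 95.8% of astroglia-like, 90.2% of precursor-like, 99.1% of oligodendrocyte-like and 94.3% of mural-like cells. For precursor-like cells the match was 46 of 46 and 8 of 8 cells at 3m and 62 of 70 in postnatal replicate 1, but 4 of 9 in postnatal replicate 2. With 8 cells in 3m replicate 2 and 9 in postnatal replicate 2, the precursor-like values of those libraries are the least precise.

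All 8 genes were located on GRCm38 (mm10) with GENCODE vM21. Ncan (ENSMUSG00000002341) lies at chr8:70093085-70120873 on the minus strand, Bcan (ENSMUSG00000004892) at chr3:87987531-88000230 on the minus strand and Vcan (ENSMUSG00000021614) at chr13:89655312-89742509 on the minus strand. Hapln1 (ENSMUSG00000021613) lies at chr13:89539796-89611652 on the plus strand, on the same chromosome as Vcan. Tnc (ENSMUSG00000028364) lies at chr4:63959785-64047015 on the minus strand and Tnr (ENSMUSG00000015829) at chr1:159523769-159931729 on the plus strand. Ptprz1 (ENSMUSG00000068748) lies at chr6:22875502-23052916 and Cspg5 (ENSMUSG00000032482) at chr9:110243783-110262576, both on the plus strand. Reads were counted per gene at the 3′ end, so splice forms such as those of Vcan, Tnc and Ptprz1 were not separated. Genes on the opposite strand overlap exons of Vcan (Gm4117, 6 exons), Tnc (8030451A03Rik, 17 exons) and Tnr (Gm38039, 1 exon). Whether the counting used strand was not given in the sources used here, so reads of these partners cannot be told apart with certainty. In astroglia-like cells Gm4117 had 23 and 39 UMIs at 3m, beside 33 and 48 of Vcan, and 19 and 44 postnatally, beside 395 and 1908 of Vcan.

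The upstream sequences are shown for the 3 genes on which the age and class differences below turn, Vcan and Tnc, which were high in postnatal astroglia-like cells, and Tnr, which was high in precursor-like cells. Each is the 250 bases before the annotated start, 5′ to 3′ in the direction of transcription, from RefSeq on GRCm38.p6. Capitals mark matches, on either strand, to ACAAT (the core bound by SOX factors), TTGGCA (an NFI half-site), TGANTCA (AP-1), CAGCTG (an E-box of the kind bound by OLIG2), TATAAA (the TATA box) and GGGCGG (the GC box). RefSeq windows matched 7 of the 8 genes, without Cspg5.
Vcan, chr13:89742513-89742762, minus strand: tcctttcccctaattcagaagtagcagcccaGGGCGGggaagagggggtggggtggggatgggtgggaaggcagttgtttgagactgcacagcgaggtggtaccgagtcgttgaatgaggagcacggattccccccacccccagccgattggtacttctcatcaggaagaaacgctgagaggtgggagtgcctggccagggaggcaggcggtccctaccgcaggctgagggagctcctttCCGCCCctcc
Tnc, chr4:64047016-64047265, minus strand: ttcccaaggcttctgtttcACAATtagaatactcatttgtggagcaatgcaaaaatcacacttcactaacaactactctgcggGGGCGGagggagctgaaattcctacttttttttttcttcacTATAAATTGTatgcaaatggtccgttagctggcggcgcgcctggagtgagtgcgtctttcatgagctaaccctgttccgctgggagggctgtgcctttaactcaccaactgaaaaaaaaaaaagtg
Tnr, chr1:159523519-159523768, plus strand: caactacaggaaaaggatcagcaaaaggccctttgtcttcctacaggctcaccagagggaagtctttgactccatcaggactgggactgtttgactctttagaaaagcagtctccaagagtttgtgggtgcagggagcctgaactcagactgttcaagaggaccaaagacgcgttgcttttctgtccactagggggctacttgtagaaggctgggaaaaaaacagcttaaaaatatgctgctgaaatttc
The Vcan window was 62.4% G and C and held 2 GC boxes, 219 and 10 bases before the start. RefSeq lists a second start of Tnc further downstream, with the overlapping window chr4:64046937-64047186, which is not printed. The Tnc window shown was 44.8% G and C and held a GC box, 2 SOX cores and a TATA box that overlaps the second SOX core. The second window was 51.2% G and C and held the same GC box and TATA box, 1 SOX core and an NFI half-site 19 bases before its start. The Tnr window, at 46.8% G and C, held none of the 6 motifs, which says only that these letters are not in this window. Of 32851 windows of the same length before all annotated starts, 32.7% held a GC box, 27.7% a SOX core, 13% the E-box, 12.4% a TATA box, 12.3% the NFI half-site and 6.75% the AP-1 site, and the median G and C content was 52.4%.

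The classes that held each gene's transcripts were examined first. Tnr, which links lecticans across neighbouring hyaluronan chains, was mostly in precursor-like cells. These cells held 489 of its 537 UMIs in 3m replicate 1 (91.1%, 95% exact binomial interval 88.3 to 93.3) and 86 of 93 in 3m replicate 2 (92.5%, 85.1 to 96.9). In postnatal replicate 1 they held 192 of 211 (91.0%, 86.3 to 94.5) and in postnatal replicate 2, with 9 such cells, 27 of 37 (73.0%, 55.9 to 86.2). Vcan moved between classes. Precursor-like cells held 86.0% and 60.3% of its UMIs in the 3m libraries, against 35.5% and 0.861% in the postnatal ones, where astroglia-like cells held 61.1% and 96.7%. Astroglia-like cells held most of the other 6 genes in every library: 70.4% to 97.9% of Ncan, 77.0% to 97.1% of Bcan, 70.9% to 95.7% of Cspg5, 61.1% to 98.3% of Ptprz1, 83.2% to 98.5% of Hapln1 and 69.8% to 99.3% of Tnc. These shares follow the make-up of each library as well as the level in a cell. Astroglia-like cells were 28.1% and 41.1% of the cells at 3m and 69.5% and 76.1% postnatally, and precursor-like cells were between 1.0% and 12.6%.

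**Figure D1:**
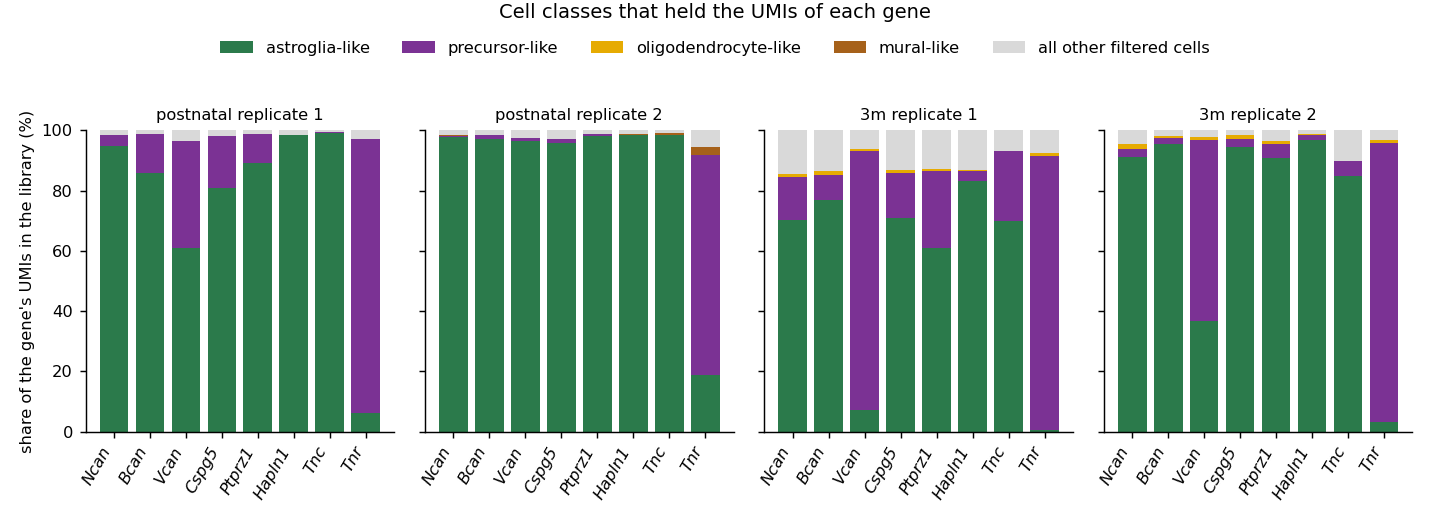
Share of each gene's UMIs (percent, vertical axis) that fell in each gated class, as stacked bars with 1 panel for each of the 4 libraries and 1 bar for each of the 8 genes. Tnr lies mostly in precursor-like cells in all libraries, and Vcan lies mostly in precursor-like cells at 3m (86.0% and 60.3%) and mostly in astroglia-like cells postnatally (61.1% and 96.7%).

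Levels were then compared within a class, as CPM, a gene's UMIs scaled to the total of all genes in the cells of that class in a library. In astroglia-like cells 4 of the 8 genes were lower at 3m than postnatally: Tnc, Vcan, Ncan and Ptprz1. Bcan was higher at 3m by a small margin, Cspg5 and Hapln1 did not pass the test, and Tnr was too low to be tested. A gene was called where edgeR's quasi-likelihood test gave an adjusted p of at most 0.05 over all genes and the log2 fold change was at least 1 in size.

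Tnc, the tenascin of immature glia and of germinal zones, was at 13.5 and 6.34 CPM in the 3m astroglia-like sums and at 136 and 233 CPM in the postnatal ones. The group means were 9.91 ± 5.05 (SD, n = 2) and 184 ± 68.6 CPM (SD, n = 2), and the libraries did not overlap. The log2 fold change, 3m over postnatal, was −3.97 ± 0.40 (SE), with an adjusted p of 0.00156. Vcan, the versican core protein, was at 14.8 and 17.9 CPM at 3m and at 97.3 and 223 CPM postnatally. Every postnatal library again lay above both 3m libraries, and the fold change was −3.01 ± 0.41 on the log2 scale (adjusted p = 0.00356). Ncan, the neurocan core protein, was at 195 and 218 CPM at 3m and at 882 and 618 CPM postnatally, a log2 fold change of −1.59 ± 0.24 (adjusted p = 0.00477). Ptprz1 was at 1391 and 1718 CPM at 3m and at 4796 and 6713 CPM postnatally, a log2 fold change of −1.61 ± 0.30 (adjusted p = 0.00868). For both genes the postnatal libraries stood apart from the 3m ones.

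Bcan, the brevican core protein of the adult matrix, was at 1276 and 1278 CPM at 3m, almost the same in both libraries, and at 962 and 559 CPM postnatally. Its log2 fold change of 1.01 ± 0.31 (adjusted p = 0.0409) was just past the limit of 1. The call was lost with DESeq2 (0.963), with a stricter gate (0.9997) and with no filter on low counts (0.957), all under that limit. Cspg5 was at 2316 and 2261 CPM at 3m and at 1932 and 1391 CPM postnatally (log2 fold change 0.73 ± 0.27, adjusted p = 0.0749). Hapln1 was at 221 and 231 CPM at 3m, but postnatally its level was 191 CPM in replicate 1 and only 47.3 CPM in replicate 2. The postnatal libraries lay far apart, and the log2 fold change of 1.19 ± 0.58 did not pass the test (adjusted p = 0.149). Tnr had 2 and 3 UMIs in the 3m astroglia-like sums and 13 and 7 in the postnatal ones, which was under the filter on low counts.

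Over the 7 genes tested the median log2 fold change was −1.59, against −0.0058 over all 11799 genes. Of all genes tested, 10.5% were called lower and 13.9% higher at 3m, beside 4 and 1 of these 7. Without trimmed-mean scaling the split of all calls turned from 43.1% of 2883 called lower to 62.85% of 3230, with the median gene shifted by −0.28. The 4 falls were kept without that scaling and the Bcan call was lost (log2 fold change 0.75). Without either 3m library in turn only Tnc and Vcan stayed called, with the adjusted p of Ncan at 0.0638 and 0.0532, that of Ptprz1 at 0.117 and 0.0905 and the Bcan call lost. Without postnatal replicate 1, Cspg5 (1.01) and Hapln1 (2.55) were called as well, and without postnatal replicate 2 the Bcan value was 0.65.

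Markers of other cells and states moved with age in the same astroglia-like sums. The summed level of the 10 precursor markers was 119 and 118 CPM at 3m and 427 and 351 CPM postnatally, with 2 to 4 of the 10 at 0 in a library. The summed level of the 10 astroglia markers was 20876 and 21528 CPM at 3m and 8913 and 6381 CPM postnatally. The summed level of the 10 cycling genes was 27.0 and 288 CPM at 3m and 457 and 1275 CPM postnatally. Among the astroglia-like cells with no UMI of a precursor marker the log2 fold changes were −4.02 for Tnc, −3.01 for Vcan, −1.69 for Ncan and −1.68 for Ptprz1, all called, and 0.85 for Bcan, not called (adjusted p = 0.0635). Among those with no UMI of a cycling gene they were −4.07, −3.42, −1.82 and −1.82, all called, and 0.84 for Bcan, under the fold limit.

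**Figure D2:**
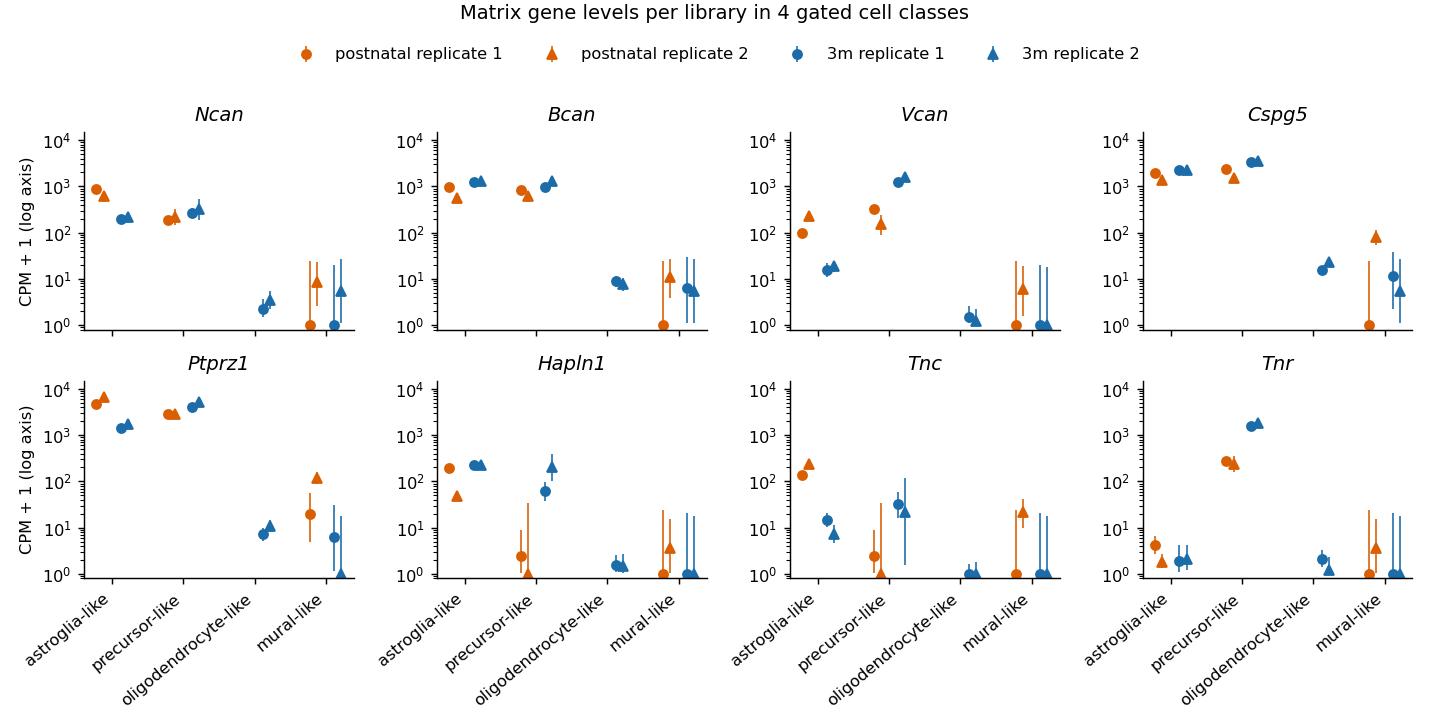
Level of each gene (CPM + 1, logarithmic axis) in the summed counts of each class, with 1 point for each library, colour for age and bars for the 95% exact Poisson interval of the count. In astroglia-like sums the postnatal points of Tnc, Vcan, Ncan and Ptprz1 lie above the 3m points, and in precursor-like sums the 3m points of Tnr and Vcan lie above the postnatal ones.

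In precursor-like cells Tnr and Vcan were higher at 3m than postnatally, and none of the 7 genes tested was called lower. Hapln1, called higher as well, was nearly absent postnatally and passed the filter on low counts through its 3m libraries alone. Tnr was at 1547 and 1782 CPM at 3m and at 272 and 238 CPM postnatally, with means of 1664 ± 166 and 255 ± 24.4 CPM (SD, n = 2 each). The 2 ages stood far apart, and the log2 fold change was 2.56 ± 0.28 (adjusted p = 0.000498). Vcan was at 1239.7 and 1637 CPM at 3m and at 326 and 149.7 CPM postnatally, a log2 fold change of 2.35 ± 0.35 (adjusted p = 0.00135). Vcan thus fell with age in astroglia-like cells and rose with age in precursor-like cells of the same libraries.

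Hapln1 in precursor-like cells was at 60.1 and 207 CPM at 3m (19 and 10 UMIs) and at 1.42 and 0 CPM postnatally (1 and 0 UMIs). The pooled ratio of 29 UMIs to 1 was 65.1, with an exact 95% interval for counting error of 10.8 to 2660, and its test (adjusted p = 0.0040) is given with no weight, since the gene was tested only because its 3m counts are high. Tnc was not tested in these sums. It had 10 and 1 UMIs at 3m and 1 and 0 postnatally, a pooled ratio of 24.7 with an interval of 3.59 to 1063. The other 4 genes did not pass. Cspg5 was at 3425 and 3543 CPM at 3m and at 2347 and 1506 CPM postnatally (log2 fold change 0.73 ± 0.28, adjusted p = 0.12). Ptprz1 was at 4092 and 5076 CPM and at 2885 and 2862 CPM (0.55 ± 0.27, adjusted p = 0.208). Bcan was at 968 and 1305 CPM and at 837 and 608 CPM (0.49 ± 0.28, adjusted p = 0.295), and Ncan at 272 and 331 CPM and at 191 and 220.2 CPM (0.42 ± 0.30, adjusted p = 0.417). For each of these 4 genes both 3m libraries lay above both postnatal ones, by less than the test could separate from the spread.

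Other markers moved with age in these sums too. The 10 precursor markers summed to 11268 and 13466 CPM at 3m and 6632 and 5442 CPM postnatally, with 0, 0, 0 and 1 of them at 0. The 10 oligodendrocyte markers summed to 468 and 331 CPM at 3m, with 1 and 6 at 0, and 208 and 123 CPM postnatally, with 5 and 7 at 0. The 10 astroglia markers summed to 1559 and 1906 CPM at 3m, with 2 at 0 in each, and 713 and 1462 CPM postnatally, with 0 and 4 at 0. Their part in the differences was not tested. With classes from clustering Tnr (2.71) and Vcan (2.29) stayed called.

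The median of the 7 genes was 0.73 (log2), against 0.00065 over the 4692 genes tested, of which 5.26% were called higher. Without trimmed-mean scaling the share of all calls that were lower went from 56.4% to 41.3%. Leaving out postnatal replicate 1 lost the Hapln1 call (adjusted p = 0.0644) and gave one for Cspg5 (1.06, adjusted p = 0.00942), and without 3m replicate 1 Hapln1 was under the filter on low counts.

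The difference between the 2 classes in their age effect was tested directly, as a contrast in 1 fit of the 14 class sums with the library as a block. The age effect was called higher in precursor-like than in astroglia-like cells for 6 of the 8 genes, where 4.13% of 10633 genes were called in that direction. The difference was 4.77 ± 0.30 (log2, SE) for Vcan (adjusted p = 5.78e-21), 1.99 ± 0.28 for Ptprz1 (adjusted p = 9.91e-08) and 2.02 ± 0.35 for Ncan (adjusted p = 1.8e-05). It was 7.69 ± 1.12 for Tnc (adjusted p = 3.33e-07), 5.17 ± 0.93 for Hapln1 (adjusted p = 3.48e-05) and 2.97 ± 0.74 for Tnr (adjusted p = 0.00411). The last 3 rest on few molecules in one of the classes: 11 and 1 UMIs of Tnc and 29 and 1 of Hapln1 in precursor-like cells, and 5 and 20 of Tnr in astroglia-like cells, at 3m and postnatally in each case. Tnc and Hapln1, with 1 postnatal UMI each in precursor-like cells, were under the low-count filter there. Tnr was under it in astroglia-like cells at both ages. The differences of these 3 genes are given with no weight, and nothing is read from the count of 6. Bcan (−0.67 ± 0.29, adjusted p = 0.153) and Cspg5 (−0.13 ± 0.30, adjusted p = 0.91) did not pass. Without 3m replicate 1 only Vcan, Ptprz1 and Hapln1 stayed called, with adjusted p of 0.0652 for Ncan, 0.162 for Tnc and 0.0875 for Tnr. Without postnatal replicate 1 the calls of Tnr (1.81, adjusted p = 0.370) and Hapln1 (adjusted p = 0.504) were lost and Bcan (−1.06) was called, and without scaling 12.7% rather than 47.2% of all calls were lower. With classes from clustering the Ptprz1 call was lost (1.69, adjusted p = 0.0649).

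**Figure D3:**
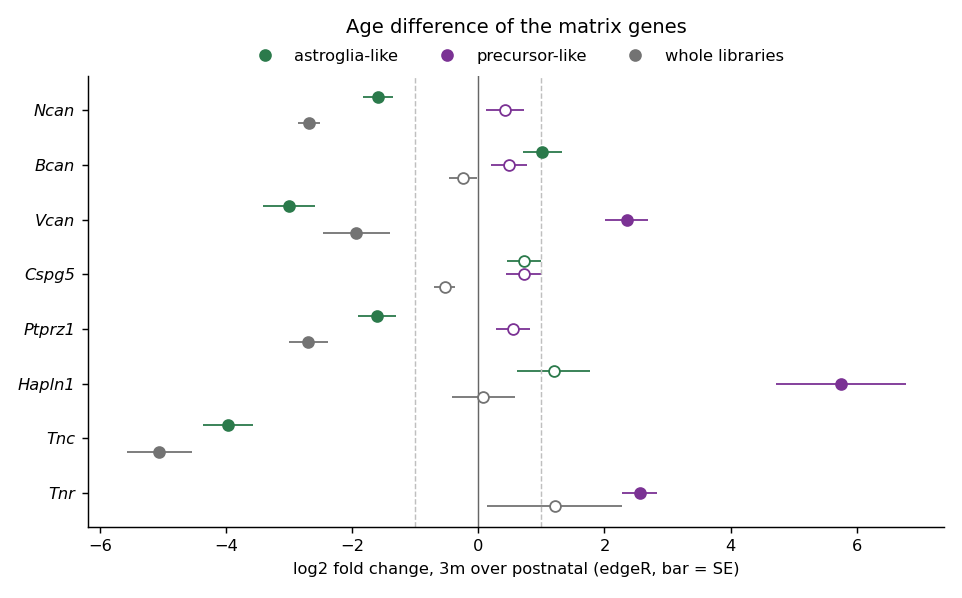
Log2 fold change of each gene, 3m over postnatal (horizontal axis), in astroglia-like sums, precursor-like sums and whole libraries, with bars for the standard error of edgeR's fit, filled points for called genes and open points for the others. Vcan sits at −3.01 in astroglia-like and at 2.35 in precursor-like sums, and dashed lines mark the fold limit of 1 in both directions.

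The same sums compare the classes at each age. Postnatally, Ncan and Ptprz1 were lower in precursor-like than in astroglia-like cells. Tnr was also called, as higher, and Tnc and Hapln1 as lower. These 3 were under the low-count filter in the class where they are low, so their counts and ratios are given as a description. For Tnr, 219 UMIs in precursor-like cells stood against 20 in the far larger astroglia-like sums, a ratio of 85.1 (48.6 to 163) within postnatal replicate 1 and 291 (123 to 791) within postnatal replicate 2, and a log2 fold change of 6.88 ± 0.31 (adjusted p = 3.77e-31). Ncan was lower by a log2 fold change of −2.17 ± 0.23 (adjusted p = 1.73e-12) and Ptprz1 by one of −1.16 ± 0.20 (adjusted p = 1.42e-06). Tnc and Hapln1 each had 1 precursor-like UMI, in postnatal replicate 1. Within that library the ratio of astroglia-like over precursor-like cells was 95.8 for Tnc (17.1 to 3792) and 135 for Hapln1 (24.1 to 5328), and over both libraries, which mix the classes in unlike shares, it was 165 and 76.6. Vcan was 0.94 ± 0.20 higher in precursor-like cells (log2, adjusted p = 7.87e-05), under the fold limit, and its direction differed between libraries: without postnatal replicate 1 it was −0.74 and without postnatal replicate 2 it was 1.5, a call. Bcan (−0.27 ± 0.20) and Cspg5 (0.02 ± 0.21) did not pass the test. Over all 10633 genes 9.37% were called higher and 11.5% lower in precursor-like cells, beside 1 and 4 of the 8, and nothing is read from these counts. Without scaling the share of calls that were lower went from 55.0% to 44.6%, Vcan was called higher (1.14) and Ptprz1 went to −0.95. Ptprz1 was at −0.98 without postnatal replicate 2, and both values are under the fold limit. With classes from clustering the Ptprz1 call was lost too (−0.98, adjusted p = 0.0791).

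At 3m Tnr and Vcan were higher in precursor-like than in astroglia-like cells. Both were under the low-count filter in the 3m astroglia-like sums. Their tests are therefore given with no weight, and their counts and ratios are a description. Tnr had 575 UMIs there and 5 in astroglia-like cells, a ratio of 1548 (659 to 4785) and a log2 fold change of 9.85 ± 0.29 (adjusted p = 9.37e-42). Vcan had a log2 fold change of 5.70 ± 0.24 (adjusted p = 5.08e-33) and a pooled ratio of 78.3 (61.7 to 100). Hapln1 was lower in precursor-like cells (−2.09 ± 0.28, adjusted p = 1.79e-09), a call that was lost without 3m replicate 1 (−1.12, adjusted p = 0.171). Bcan (−0.94 ± 0.20, adjusted p = 0.000127) and Ptprz1 (0.83 ± 0.20, adjusted p = 0.000466) passed the test but stayed under the fold limit. Tnc (0.63 ± 0.58), Ncan (−0.15 ± 0.25) and Cspg5 (−0.11 ± 0.22) did not pass. Here the scaling mattered: with library totals alone the median of all genes moved by 0.65 (log2), the share of calls that were lower went from 52.15% to 21.8%, Ptprz1 was called at 1.57, and Ncan (0.55) and Cspg5 (0.62) changed sign. Of all genes 12.5% were called higher and 13.7% lower in precursor-like cells at 3m, beside 2 and 1 of the 8. Tnr and Vcan were under the low-count filter in the 3m astroglia-like sums, so nothing is read from that count. Bcan passed the fold limit without 3m replicate 2 (−1.11), without postnatal replicate 1 (−1.11) and without postnatal replicate 2 (−1.04). In CPM, which carries no such scaling, its direction differed between the 3m libraries. Precursor-like and astroglia-like cells had 968 and 1276 CPM in 3m replicate 1 and 1305 and 1278 CPM in 3m replicate 2.

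**Figure D4:**
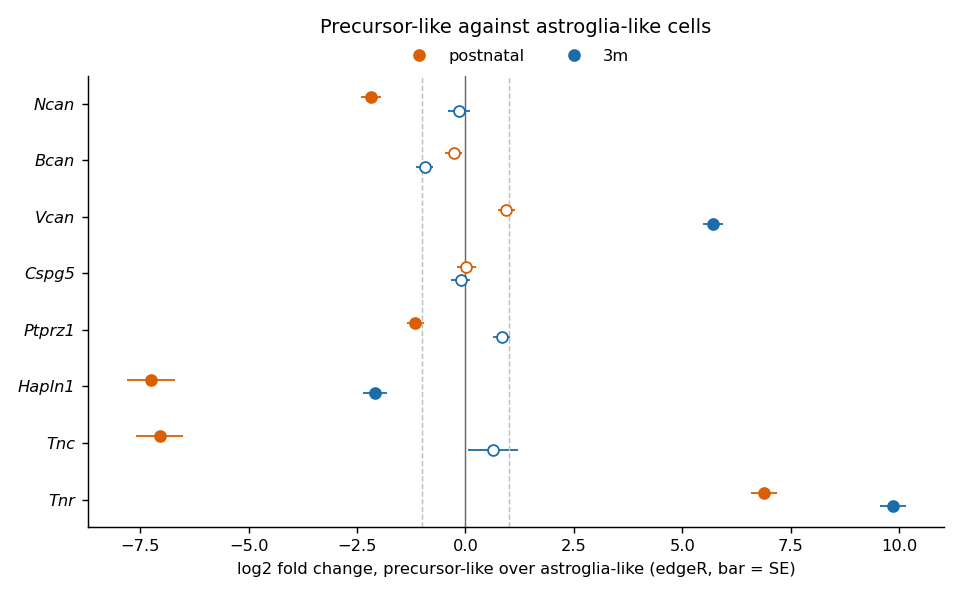
Log2 fold change of each gene, precursor-like over astroglia-like cells (horizontal axis), postnatally and at 3m, with standard errors from edgeR's fit, filled points for called genes and open points for the others. Tnr lies at 6.88 and 9.85, Vcan moves from 0.94 postnatally to 5.70 at 3m, and Hapln1 lies below 0 at both ages.

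Oligodendrocyte-like and mural-like cells had little of these genes. In the 849 oligodendrocyte-like cells at 3m, 7 of the 8 genes were called lower than in astroglia-like cells, where 25.3% of all genes were. All 7 were under the low-count filter in oligodendrocyte-like cells and in the fit through other classes, so nothing is read from the count and the levels are a description. Cspg5 was at 14.7 and 22.5 CPM there, Ptprz1 at 6.17 and 9.96 CPM, Bcan at 7.98 and 6.72 CPM and Ncan at 1.27 and 2.55 CPM. The pooled level in astroglia-like cells was 113 times that in oligodendrocyte-like cells for Ncan (interval 71.3 to 192), 200 times for Ptprz1 and 40.6 times for Vcan (15.3 to 153). For Hapln1, with 3 and 2 UMIs in oligodendrocyte-like cells, it was 444 times (190 to 1372). Tnc had no UMI in oligodendrocyte-like cells and was at least 31.4-fold higher in astroglia-like cells, taking 3 counts over the group as the floor. Tnr was near 0 in both classes (6 and 1 UMIs against 2 and 3) and did not pass the test (−0.56 ± 0.90, adjusted p = 0.614). Without 3m replicate 2 its sign changed (0.24). The precursor-like cells of the same libraries had 1547 and 1782 CPM of it, and the oligodendrocyte-like cells 1.09 and 0.232 CPM.

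In mural-like cells 7 of the 8 genes were called lower than in astroglia-like cells at each age, where 15.9% of all genes were lower postnatally and 19.0% at 3m. But for Ptprz1 postnatally, all of them were under the low-count filter in mural-like cells, so nothing is read from these counts. In both 3m libraries Vcan, Tnc, Hapln1 and Tnr had no UMI in mural-like cells, and Hapln1 was at least 30.6-fold, Vcan at least 2.24-fold and Tnc at least 1.30-fold higher in astroglia-like cells. Postnatally the 21 mural-like cells of replicate 1 had no UMI of any of the 8 but Ptprz1 (18.8 CPM). Replicate 2 had 118 CPM of Ptprz1, 79.4 CPM of Cspg5 and 20.5 CPM of Tnc, and the pooled ratio of astroglia-like over mural-like cells was 13.9 for Tnc (7.03 to 32.2) and 68.4 for Ptprz1. Ncan and Bcan had 3 and 4 UMIs in the postnatal mural-like sums, with pooled ratios of 129 (44.1 to 625) and 94.7 (37.0 to 348), and 1 and 2 UMIs in the 3m sums. Ptprz1 and Cspg5 had 1 and 3 UMIs in the 3m sums, and Vcan and Hapln1 had 2 and 1 in the postnatal ones. Tnr had 1 UMI postnatally and was not called at either age. The mural-like sums also held 4336 and 4547 CPM of the 10 astroglia markers at 3m, with 3 and 5 of them at 0, and 1902 and 1458 CPM postnatally, with 6 and 1 at 0, and the part of these in the low values was not tested. Without scaling the share of all 3m calls that were lower went from 58.4% to 41.85%. The 3m call of Vcan was lost without 3m replicate 2 (adjusted p = 0.0555) and that of Tnc without either 3m library (adjusted p = 0.186 and 0.0734).

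In whole libraries, summed over all cells kept, Tnc, Ptprz1, Ncan and Vcan were lower at 3m. Tnc was at 4.38 and 2.51 CPM at 3m and at 79.5 and 179 CPM postnatally (log2 fold change −5.06 ± 0.52, adjusted p = 0.00146). Ptprz1 was at 517 and 637 CPM and at 3118 and 5185 CPM (−2.70 ± 0.31, adjusted p = 0.00207), and Ncan at 62.7 and 80.5 CPM and at 540.2 and 479 CPM (−2.68 ± 0.17, adjusted p = 0.000345). In these sums fewer cells of a type and less RNA per cell cannot be told apart, and oligodendrocyte-like cells made up 49.6% and 38.4% of the cells at 3m and none of them postnatally. Vcan (−1.94 ± 0.53, adjusted p = 0.0316) joined its fall in astroglia-like cells and its rise in precursor-like cells in 1 value, and the call was lost without 3m replicate 2 (−1.39, adjusted p = 0.0796). Cspg5 passed the test under the fold limit (−0.54 ± 0.17, adjusted p = 0.0485). Bcan (−0.25 ± 0.22) and Hapln1 (0.07 ± 0.50) did not pass. Within an age Tnr was higher in the library with more precursor-like cells: its level was 54.7 and 11.7 CPM in 3m replicates 1 and 2, where 4.1% and 1.0% of the cells were precursor-like. In the postnatal replicates 1 and 2 its level was 30.2 and 3.28 CPM, and 12.6% and 1.2% of the cells were precursor-like. The ages overlapped and the test did not call it (1.21 ± 1.07, adjusted p = 0.394), whereas without postnatal replicate 1 it was called (3.47, adjusted p = 0.0229), as was Hapln1 (1.06, adjusted p = 0.00476). Over all 14288 genes 13.3% were called lower at 3m, beside 4 of the 8.

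Because the libraries differed in depth, each cell was thinned to 2000 UMIs and the share of cells with at least 1 UMI of a gene was taken. Shallower cells were left out, 34 and 52 astroglia-like cells at 3m and 67 and 35 postnatally. Tnc was found in 2.49% (95% exact interval 1.01 to 5.07) and 1.15% (0.237 to 3.31) of astroglia-like cells at 3m and in 22.6% (18.1 to 27.6) and 38.2% (34.0 to 42.5) postnatally. Vcan was found in 2.49% and 3.82% at 3m and in 17.2% and 35.5% postnatally. For both genes each postnatal library lay above both 3m libraries. The intervals cover the sampling of cells within 1 library only, and cells are not replicates of an age. Hapln1 was found in 31.7% at 3m in both libraries and in 30.1% and 8.72% postnatally, and Tnr in at most 0.627% in any library. Ncan was found in 33.5% and 33.2% at 3m and in 71.2% and 60.7% postnatally, and Bcan in 86.5% and 87.4% at 3m and in 75.9% and 53.5% postnatally. Cspg5 (89.5% to 95%) and Ptprz1 (89.0% to 97.1%) were found in most astroglia-like cells of every library. In precursor-like cells Tnr was found in 86.4% (72.6 to 94.8) and 83.3% (35.9 to 99.6) of cells at 3m and in 39.3% (27.1 to 52.7) and 11.1% (0.281 to 48.2) postnatally, the last from 9 cells. Vcan was found in 88.6% and 66.7% at 3m and in 44.3% and 44.4% postnatally. After thinning, Hapln1 and Tnc were found in 0 of 61 precursor-like cells in postnatal replicate 1, which allows a share of cells with a UMI of up to 4.92% by the limit of 3 counts and 5.87% by the exact interval. Unthinned, each had 1 UMI in this library. Ncan was found in 36.1% to 66.7% of precursor-like cells, Bcan in 66.7% to 100%, Ptprz1 in 77.8% to 100% and Cspg5 in 88.9% to 100%, over the 4 libraries. In endothelial-like cells, which should lack these genes, all 8 were found in 0 of 33 and 0 of 31 cells at 3m, which allows up to 9.09% and 9.68% by the limit of 3 counts and 10.6% and 11.2% by the exact interval. In the 12 such cells of postnatal replicate 1, which had a median of 27240 UMIs, Cspg5 was found in 1 cell and the other 7 in none. In the unthinned sums, 3m endothelial-like cells held 2 UMIs of Ptprz1 and 4 of Cspg5, and the 16 microglia-like cells of postnatal replicate 2 held 10 UMIs of Cspg5 (213 CPM) and 3 of Bcan (63.9 CPM). Unthinned, the mean share of astroglia-like cells with a UMI was 5.56% at 3m and 61.3% postnatally for Tnc and 9.86% and 58.1% for Vcan. The median UMIs of the cells were 5894 and 8048 in astroglia-like cells at 3m and 9257.5 and 12427 postnatally, and 5981 and 5343 in endothelial-like cells at 3m. With 2 libraries an age an exact two-sided permutation test cannot give a p below 0.333, and it was not used to call these shares.

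**Figure D5:**
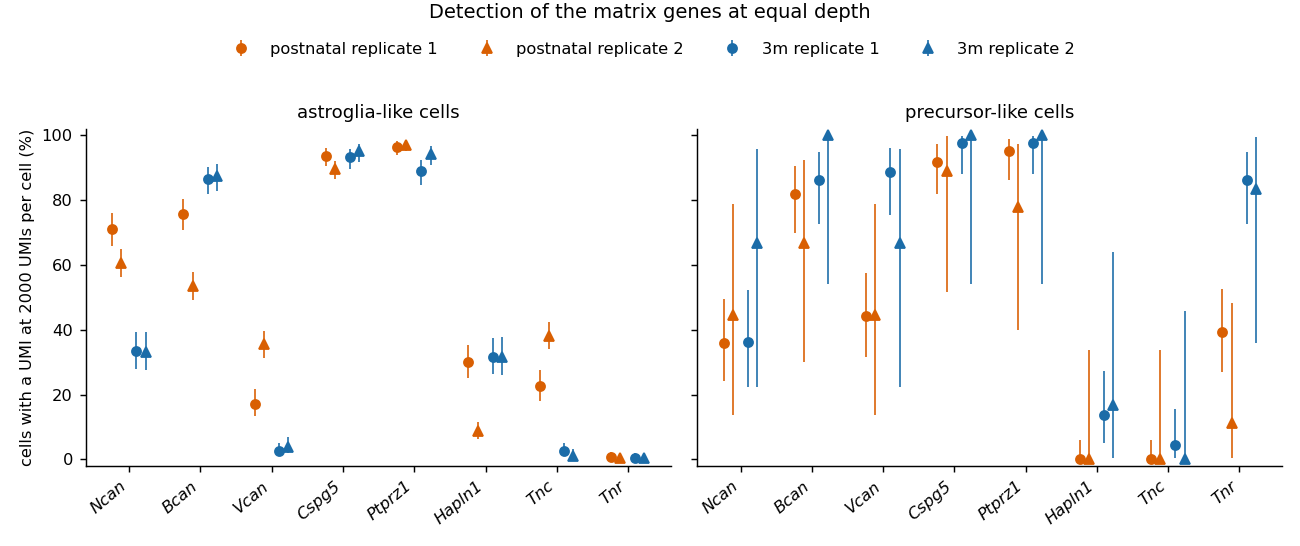
Share of cells (percent, vertical axis) with at least 1 UMI of each gene after thinning every cell to 2000 UMIs, for each library in astroglia-like and precursor-like cells, with bars for the 95% exact binomial interval. Tnc and Vcan are found in 1.15% to 3.82% of astroglia-like cells at 3m and in 17.2% to 38.2% postnatally, and Tnr in 86.4% and 83.3% of precursor-like cells at 3m.

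Some postnatal astroglia-like cells held transcripts of cell cycle genes, and the matrix genes were compared between them and the rest. Cells with at least 3 UMIs of cycling genes (30 and 76 in the 2 postnatal libraries) were set against those with none (287 and 343). Of the 7 genes tested 6 were lower in the cycling cells, where 7.83% of 11053 genes were called lower. Bcan was at 499 CPM in the cycling and 1093 CPM in the other cells of replicate 1 and at 216 and 727 CPM in replicate 2, a log2 fold change of −1.40 ± 0.17 (adjusted p = 5.14e-05). Ncan was at 407 and 1025 CPM and at 293 and 804 CPM (−1.34 ± 0.16, adjusted p = 3.28e-05). Tnc was at 35.3 and 156 CPM and at 143 and 281 CPM (−1.28 ± 0.24, adjusted p = 0.00142). In every pair the cycling cells were the lower. Hapln1 (−1.36 ± 0.29), Cspg5 (−1.28 ± 0.17) and Vcan (−1.10 ± 0.19) were called as well, and Ptprz1 passed the test under the fold limit (−0.93 ± 0.19, adjusted p = 0.00263). Tnr, with 2 and 3 UMIs in the cycling sums, was under the filter on low counts. The cycling cells were also deeper, with 19821 and 34735 UMIs a cell on average against 8510 and 11482, and the part of depth in the difference was not tested.

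The other genes that build, cut and bind this matrix were taken from 5 lists: chondroitin sulphate synthesis (19 genes), hyaluronan (7), link proteins and aggrecan (4), proteases and their inhibitors (12) and receptors and partners (14). In astroglia-like cells 3 of the 14 tested genes of chondroitin synthesis were lower at 3m and 1 was higher, beside 10.5% and 13.9% of all genes. The same shares apply to the other lists, whose counts rest on few tested genes. Chst3, Chst7, Has2 and Cntn1 were under the low-count filter at the age where they are low, so their values are a description and nothing is read from the counts that hold them. The sulphotransferases Chst3 (3 UMIs at 3m against 208 postnatally, a pooled ratio of 26.9 with an interval of 9.09 to 132) and Chst7 (−2.07, adjusted p = 0.029) and the chondroitin synthase Chsy1 (−1.13, adjusted p = 0.00966) made up the falls. Of the hyaluronan genes 5 were tested, 1 lower and 1 higher: Has2, a hyaluronan synthase, had 0 UMIs in both 3m libraries against 163 postnatally and was at least 21.1-fold lower at 3m, and the hyaluronidase Hyal1 was higher (1.62, adjusted p = 0.00757). Hapln3, the only tested gene of the list of link proteins and aggrecan, which does not hold Hapln1, was lower (−1.21, adjusted p = 0.0305). Of 7 proteases and inhibitors 2 were higher and 1 lower: the inhibitors Timp4 (1.85, adjusted p = 0.00917) and Timp3 (1.22, adjusted p = 0.00385), and the membrane protease Mmp14 (−1.01, adjusted p = 0.00432). Of 11 receptors and partners 2 were higher and 1 lower: contactin-1, a ligand of Ptprz1 encoded by Cntn1 (3.17, adjusted p = 0.00156), Nrcam (1.30, adjusted p = 0.0108) and the integrin chain Itgb1 (−1.69, adjusted p = 0.00351).

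In precursor-like cells 6 listed genes were called by age, beside 5.26% of all genes called higher, and all were higher at 3m: Chst11 (1.99, adjusted p = 0.00511) and Xylt1 (1.40, adjusted p = 0.00692), both tested genes of chondroitin synthesis, Timp3 (1.60, adjusted p = 0.00837) of 3 proteases and inhibitors, and Nrcam (1.63, adjusted p = 0.00692), Itgav (1.49, adjusted p = 0.0169) and Ptprs (1.19, adjusted p = 0.0466), a chondroitin sulphate receptor, of 9 receptors and partners. Chst11 was under the low-count filter postnatally, and its value is a description. Has2 (0.11, adjusted p = 0.953) and Acan (0.78, adjusted p = 0.502) were the only tested genes of their lists. Compared with astroglia-like cells, precursor-like cells had more Acan, the aggrecan core protein, which had 18 UMIs against 6 postnatally, a ratio of 46.2, and 16 against 0 at 3m, at least 71.8-fold higher. They had more Has2 (1.88, adjusted p = 0.00549, postnatally, and 13 UMIs against 0, at least 58.3-fold higher, at 3m) and less Timp3 (−2.12 postnatally and −2.02 at 3m). Of 16 genes of chondroitin synthesis 3 were higher and 2 lower postnatally and 5 higher and 1 lower at 3m, with the sulphotransferase Ust higher at both ages (3.17 and 4.83). Of 13 receptors and partners 4 were higher and 4 lower postnatally and 5 higher and 4 lower at 3m. Of all genes 9.37% were higher and 11.5% lower postnatally and 12.5% and 13.7% at 3m, and no list was tested as a whole. Acan, Has2, Ust and Erbb3 at both ages, Cntn1 postnatally and Egfr at 3m were under the low-count filter in the class where they are low, so nothing is read from the counts that hold them. Cntn1 led the postnatal list among genes with UMIs in both classes (7.58, adjusted p = 2.95e-43). Erbb3, a neuregulin receptor, had 8 UMIs against 0 and was at least 41.1-fold higher. Egfr, with 467 UMIs in 3m astroglia-like cells, had none in precursor-like cells, at least 11.6-fold lower. In oligodendrocyte-like cells the link protein Hapln2 (7.66, adjusted p = 2.2e-42) and the lectican-cleaving protease Adamts4 (6.50, adjusted p = 1.08e-26) were higher than in astroglia-like cells, and Hapln3 (−6.57), Timp3 (−6.58) and Timp4 (−6.54) were lower. Of 3 link proteins and aggrecan 1 was higher and 1 lower, and of 7 proteases and inhibitors 2 were higher and 3 lower, where 15.4% of all genes were called higher and 25.3% lower. Hapln2, Adamts4, Hapln3, Timp3 and Timp4 were under the low-count filter in the lower class, and their values too are a description.

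Finally, genes with a like pattern were named by the Pearson correlation of log2(CPM + 1) over the 14 class sums, as a description: the sums share libraries and the differences between classes weigh most. Nearest to Ncan were Fam181b (r = 0.991) and 2810459M11Rik (0.981), and nearest to Cspg5 were Bcan (0.986) and Apba2 (0.975). Nearest to Vcan were Sox3 (0.989) and Sema5b (0.984), and nearest to Ptprz1 were Kcnk2 (0.982) and Pou3f2 (0.973). Hapln1 was nearest to Gm11266 (0.984) and Soat1 (0.978). Tnr was nearest to Lrrtm4 (0.992) and to Gm38039 (0.988), the gene on the opposite strand that overlaps one of its exons, which had 37, 5, 43 and 3 UMIs in the precursor-like sums of 3m replicates 1 and 2 and postnatal replicates 1 and 2. The highest value for Tnc was lower, with Cnn3 (0.906) and Nme5 (0.896). Among the 8 genes the correlation ran from 0.184 for Tnc and Tnr to 0.986 for Bcan and Cspg5.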

How the data were processed

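Single cells of mouse striatum, enriched with ACSA2 beads, were profiled by 10x 3′ v3.1 chemistry in 4 libraries. The authors aligned the reads with Cell Ranger to mm10 and deposited raw UMI counts of 31053 genes in 4245 barcodes, with the runs of a library merged; per the labels, Seurat 3.1.1 was also used. Whether the counting used strand was not given in the sources used here. From the deposited counts, cells with under 10% mitochondrial UMIs and at least 500 genes were kept. A cell was gated to 1 of 9 classes where at least 3 of the class's 10 markers were found and at least 2 more than of any other list. No doublet caller was run, and gated cells may hold some markers of another class, fewer by the margin. Clusters for the check came from Scanpy 1.11.5.

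Counts were summed per library and class (at least 5 cells) and tested across all genes with edgeR 4.0.16 (R 4.3.3): TMM scaling, filterByExpr for low counts (a gene counts as under this filter in a group where fewer than 2 of its sums reach the filter's CPM cutoff), quasi-likelihood F test, Benjamini-Hochberg adjustment, called at adjusted p of at most 0.05 and log2 fold change of at least 1 in size. Age fits used 1 sum a library for each class. Class contrasts, the contrast of age effects and the mural and oligodendrocyte contrasts came from 1 fit of 14 sums with the library as a block, and the cycling contrast from a fit of its own with the same block. Fits were tested on simulated data. Pooled ratios and shares have exact 95% intervals, and the floor for a count of 0 is 3 counts over the group; both cover counting error only. Scripts used Python 3.11.15, numpy 2.4.6 and scipy 1.17.1.

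The text gives the 8 genes in each comparison by fold change, level or UMI count and, for the age and precursor comparisons in the main, called genes of each list from the 3 with the largest fold change (the most abundant tested gene where none was called), and the 2 genes most correlated with each of the 8, except that those of Bcan are not reported here. The genes and lists were chosen with earlier results of these data known. DESeq2 1.42.0, other scalings, no filter, other gates and each library left out were alternatives.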

Additional observations from a re-analysis of the deposited data

Results flagged for a closer look

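The difference of the age effect between precursor-like and astroglia-like cells was past the threshold for 6 of the 8 genes, by the contrast of the 2 effects in edgeR's fit (3m over postnatal, precursor-like minus astroglia-like, on the log2 scale). Of 10633 genes 4.13% were called in that direction, and nothing is read from the count of 6. The difference was 4.77 for Vcan (adjusted p = 5.78e-21), which fell with age in astroglia-like cells and rose in precursor-like cells. It was 7.69 for Tnc (adjusted p = 3.33e-07) and 5.17 for Hapln1 (adjusted p = 3.48e-05), each with 1 UMI in the postnatal precursor-like sums, so that these values carry no weight. It was 2.02 for Ncan (adjusted p = 1.8e-05) and 1.99 for Ptprz1 (adjusted p = 9.91e-08), whose falls were in astroglia-like cells and whose precursor-like values did not pass the age test. It was 2.97 for Tnr (adjusted p = 0.00411), with 5 and 20 UMIs in the astroglia-like sums at 3m and postnatally. Tnr was under the low-count filter in these sums, so its value carries no weight either. The groups of 2 libraries are too small for a test of single libraries that stand apart.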

How the results depend on the processing

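Of the 566 alternative values of the fold changes that were called, 538 kept direction and call, 28 kept direction and lost the call, and none reversed. These values include calls whose lower group was under the low-count filter, among them all 7 in oligodendrocyte-like and all 7 in 3m mural-like cells. A gene near 0 in one group can hardly reverse, so the 538 are not read as a measure of stability. Without a library in turn the count of called genes ranged from 2 to 7 for age in astroglia-like cells (5 with all libraries) and from 3 to 6 for the contrast of age effects (6). By adjusted p alone 5 rather than 3 genes were called between precursor-like and astroglia-like cells at 3m. Values that reversed were all of genes not called. With classes from clustering, Ncan for age in precursor-like cells was at −0.00555, Cspg5 between the classes postnatally at −0.012 and Tnr in postnatal mural-like cells at −0.84. With no scaling, Hapln1 for age in whole libraries was at −0.081, Ncan and Cspg5 between the classes at 3m at 0.55 and 0.62, and Cspg5 in the contrast of age effects at 0.39. With no filter Cspg5 between the classes postnatally was at −0.079. The other reversals came from leaving out 1 library, over which the values ran, for age in whole libraries, from −0.50 to 0.0367 for Bcan, from −0.32 to 3.47 for Tnr and from −0.53 to 1.06 for Hapln1. Between precursor-like and astroglia-like cells postnatally they ran from −0.74 to 1.5 for Vcan and from −0.051 to 0.032 for Cspg5, and for Tnr from −2.11 to 0.24 in oligodendrocyte-like cells and from −5.43 to 1.64 in postnatal mural-like cells. The cause was not tested in these cases.

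The replicate numbers are shared by both ages but mark no stated litter or day. Both libraries of replicate 1 had 4 sequencing runs and both of replicate 2 had 2, and the 2 libraries of replicate 2 shared 95 barcodes. The deviations of same-numbered libraries correlated by 0.178 in astroglia-like sums, −0.0096 in precursor-like sums and 0.208 in whole libraries. With the replicate number as a block, 6, 3 and 5 of the genes were called for age in these 3 kinds of sum, with Hapln1 added in astroglia-like cells (1.51, adjusted p = 0.0114) and Tnr in whole libraries (1.38, adjusted p = 0.00802). All-gene calls rose with that block as well, to 3095 of 11799, 764 of 4692 and 4255 of 14288, from 2883, 567 and 4151. Over all genes the number called for age in astroglia-like cells fell from 2883 to 1381 and 1369 without a 3m library, and in precursor-like cells from 567 to 258 with DESeq2 and 303 without 3m replicate 1. It went from 2215 to 762 for the postnatal class contrast without postnatal replicate 1, from 2786 to 1106 for that at 3m without 3m replicate 1, from 3463 to 2270 for mural-like cells at 3m without 3m replicate 2, and from 831 to 210 and 430 for the contrast of age effects without 3m replicates 1 and 2. Depth limits Tnr in astroglia-like cells, Tnc and Hapln1 in precursor-like cells and the 8 genes in mural-like cells, where a few UMIs carry many of the values.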
